A study of Rattus norvegicus with 9 samples.

Results

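The macrophage and leukocyte genes described here are 35 genes used as markers of myeloid cells or of leukocytes in general. They were taken by their gene symbols from the deposited tables of cultured rat fibroblasts, and all 35 of 35 symbols were found among 32883 genes. RNA sequencing covered 9 libraries, with 3 libraries for each of 3 types, called Fb-Epn, Fb-Par or Fb-Skn. The first type held fibroblasts grown from the epineurium, the connective tissue sheath of the sciatic nerve, and Fb-Par were grown from the nerve parenchyma inside it, both from the same 2 rats. Fb-Skn were grown from the abdominal skin of 1 other rat. All rats were wild-type male Lewis rats aged 10 weeks, with no treatment or transgene. The tissues were digested with collagenase and trypsin, the medium was exchanged shortly after seeding so that unattached cells were discarded, and the cells were used after 1 passage in medium with serum. Each culture held the cells that attached, and no step selected fibroblasts by a surface marker. The paper describes all cells in such cultures as labelled for fibroblast markers, with negligible labelling for Schwann cell and endothelial markers. It takes this as high purity. No stain for macrophages is described. Because the nerve types and Fb-Skn came from different rats and body sites, tissue and rat cannot be told apart in any comparison with Fb-Skn. The 3 samples of a type cannot be 3 rats, and the labels do not say whether they were separate cultures, so the SD and p-values below measure the spread between samples, which may be technical.

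Macrophages are tissue-resident phagocytes that depend on signalling through the CSF1 receptor and on the transcription factor PU.1, encoded by *Spi1*. Peripheral nerve holds resident macrophages in the epineurium and in the endoneurium, and skin holds them in the dermis. After nerve injury, resident and recruited macrophages clear myelin debris. The genes below fall into roles, from markers carried by all leukocytes, through the regulator PU.1, surface receptors and their signalling adaptors, to secreted complement C1q chains and proteins of the lysosome and the phagocyte oxidase.

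PU.1 belongs to the ETS family and recognises DNA with the core GAGGAA, so the promoters of the genes were searched for these letters on both strands. The search used windows of 300 bases, 250 before and 50 after each RefSeq gene start on the assembly GRCr8. Promoters were at hand for 22 of the 35 genes. GAGGAA was present in 15 of these 22 promoters (68.2%), and in 9239 of 33469 promoters of all genes (27.6%). The longer form GAGGAAGT, which contains the shorter one, was present in 3 of the 22, those of *Cd37*, *Ctss* and *Cd53* (13.6%), and in 2.42% of all promoters. A match of letters is a description of the sequence, not evidence of binding. Of these promoters, 4 are printed, and they belong to the gene with the highest level (*Lyz2*), to a macrophage marker with matches on both strands (*Cd68*), and to a pair of genes whose levels departed from the common pattern (*Cd163* and *Cx3cr1*). They are written in the direction of the gene with the matches in capitals. *Lyz2* has 1 match, which begins at position -46 from the start. *Cd68* has 2, at -27 on the opposite strand and at position 5 on its own strand. The windows of *Cd163* and *Cx3cr1* do not contain these letters. That of *Ccr1*, which also departed from the common pattern, does contain them, and some genes with the common pattern lack them.
Lyz2, chr7:54797962-54798261, minus strand: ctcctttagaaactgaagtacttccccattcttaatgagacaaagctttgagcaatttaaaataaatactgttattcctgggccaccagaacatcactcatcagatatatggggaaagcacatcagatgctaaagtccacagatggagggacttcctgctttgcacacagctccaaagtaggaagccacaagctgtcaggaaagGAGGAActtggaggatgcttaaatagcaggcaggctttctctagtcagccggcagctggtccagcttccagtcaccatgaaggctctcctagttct
Cd68, chr10:54882392-54882691, minus strand: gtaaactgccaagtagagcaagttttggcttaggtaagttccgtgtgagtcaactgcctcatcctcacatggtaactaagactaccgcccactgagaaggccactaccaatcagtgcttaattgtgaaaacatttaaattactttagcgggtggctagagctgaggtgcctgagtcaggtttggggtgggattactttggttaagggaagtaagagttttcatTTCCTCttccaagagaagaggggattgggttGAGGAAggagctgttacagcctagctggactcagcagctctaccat
Cd163, chr4:158770524-158770823, plus strand: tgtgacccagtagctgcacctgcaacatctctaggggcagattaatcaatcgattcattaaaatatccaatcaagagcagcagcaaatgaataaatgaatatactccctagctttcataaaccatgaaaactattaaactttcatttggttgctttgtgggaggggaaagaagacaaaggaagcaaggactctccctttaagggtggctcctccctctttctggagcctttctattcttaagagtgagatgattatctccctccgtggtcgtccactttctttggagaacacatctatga
Cx3cr1, chr8:128677017-128677316, minus strand: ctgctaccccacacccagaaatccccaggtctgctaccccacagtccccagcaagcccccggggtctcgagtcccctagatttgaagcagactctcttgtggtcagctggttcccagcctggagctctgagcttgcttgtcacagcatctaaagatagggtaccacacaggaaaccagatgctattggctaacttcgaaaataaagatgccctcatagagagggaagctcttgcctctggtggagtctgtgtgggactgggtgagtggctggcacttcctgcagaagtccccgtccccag

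Macrophage and leukocyte genes were highest in Fb-Epn, lower in Fb-Par and lowest in Fb-Skn. Levels are given as TPM, transcript counts scaled for gene length and for the size of the library, which can be compared between genes. Summed over the 35 genes, the level was 1871, 1827 and 1919.8 TPM in the 3 Fb-Epn libraries, 454, 426.9 and 428.4 TPM in the Fb-Par libraries, and 129, 134.3 and 133.5 TPM in the Fb-Skn libraries. The sums of the 3 types did not overlap, and the libraries within a type lay close to each other. *Lyz2* alone made up 51.1% of the sum for Fb-Epn, 40.7% for Fb-Par and 45.8% for Fb-Skn. Without *Lyz2* the sums were 915 ± 22.9, 259 ± 11.3 and 71.7 ± 0.711 TPM (mean ± SD, n = 3). In bulk libraries such as these, fewer cells of a type and less RNA per cell cannot be told apart.

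Most of the genes followed the order of the sum one by one. In 31 of the 35 genes every Fb-Epn library lay above every Fb-Par library, and every Fb-Par library above every Fb-Skn library, an order found in 7.08% of all tested genes. The 4 exceptions were *Plek*, *Cd163*, *Cx3cr1* and *Ccr1*. Fb-Epn had the highest mean for 34 genes, and Fb-Skn the lowest for 33. A mean above 10 TPM was reached by 21 genes in Fb-Epn, by 10 in Fb-Par and by 1 in Fb-Skn, whereas 1, 5 and 17 genes lay below 1 TPM. The median of the genes was 13.8 TPM for Fb-Epn, 5.37 TPM for Fb-Par and 1.08 TPM for Fb-Skn, against medians of 19.1, 19.1 and 16.8 TPM over all tested genes. Many of the genes were therefore at or under the level of a typical expressed gene even in Fb-Epn, and *Lyz2* stood far above it.

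**Figure D1:**
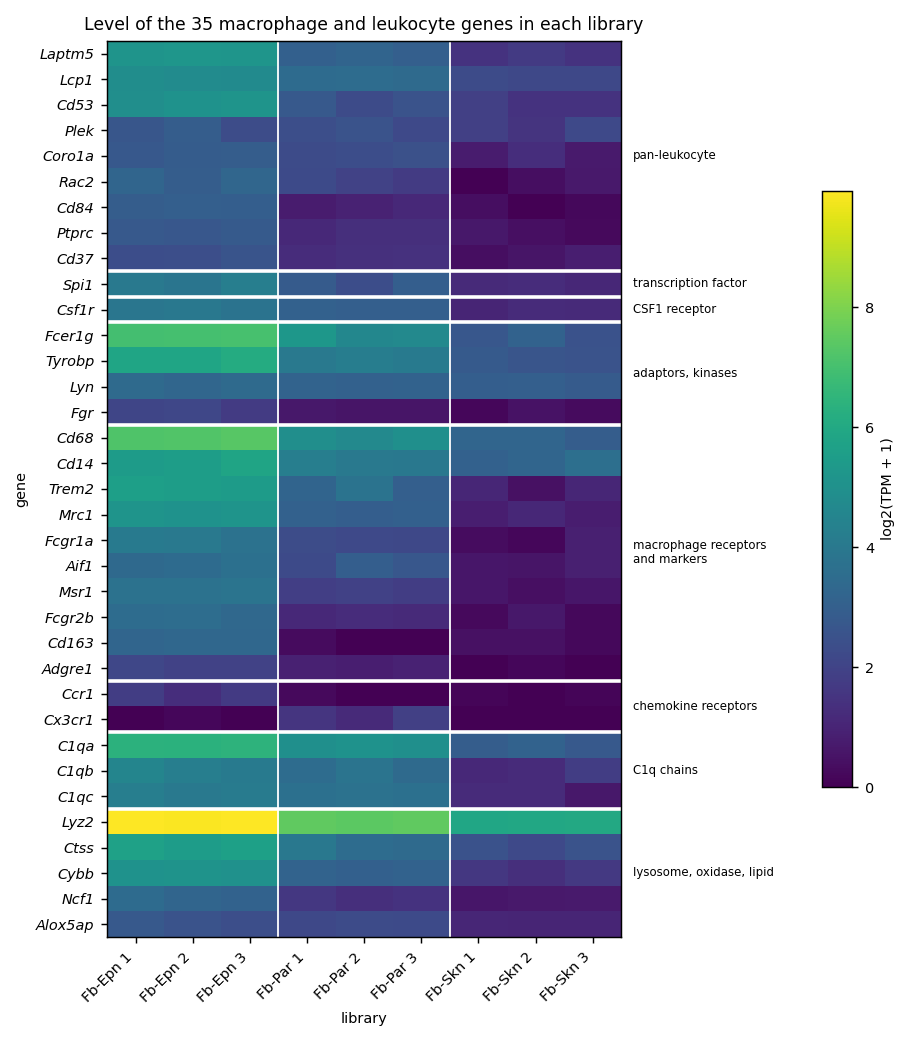
Level of each of the 35 genes in each of the 9 libraries as a colour, on the scale log2(TPM + 1), with genes grouped by role from top to bottom and libraries by type from left to right. The colours become darker from Fb-Epn through Fb-Par to Fb-Skn for most genes, and *Lyz2* is the brightest in every library. *Cx3cr1* is dark throughout, though less so in the Fb-Par columns.

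Differences were tested on the deposited counts with edgeR's quasi-likelihood test. Total counts were 10084584 to 12310506 per library. The expression filter left 13273 genes and 34 of the 35 members, all except *Cx3cr1*. A gene was called at a Benjamini-Hochberg adjusted p under 0.01 over all tested genes. Called genes that differed by more than 2 on the log2 scale, in either direction, are named DE genes. Because the filter can keep a gene through the type in which it is high, the counts below describe the genes and are not evidence for the direction of the list. With 3 libraries per type, an exact permutation test of a single gene cannot go below p = 0.10.

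In Fb-Epn vs Fb-Skn, 32 of the 34 members tested were called, all of them higher in Fb-Epn, and all 32 were DE genes. Over all tested genes 43.9% were called, 23.0% being higher in Fb-Epn, and 6.22% were DE genes that were higher in Fb-Epn. The median log2 fold change of the 34 genes was 3.81, a 14.0-fold difference, and the median of all tested genes was 0.00. *Lyn* and *Plek*, 2 genes of signalling inside leukocytes, were not called. With library size alone as the scaling both passed (adjusted p = 0.0057 for *Lyn* and 0.0086 for *Plek*). *Lyn* also passed with limma on log2 TPM (adjusted p = 0.0039 and 0.0046 with pseudocounts of 1 and 0.1), and further settings for *Plek* are given below.

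Between both nerve-derived types, 29 of the 34 genes were called higher in Fb-Epn than Fb-Par and 0 were called lower. In this comparison 38.8% of all tested genes were called, 20.2% higher in Fb-Epn. DE genes were 17 of the 34, against 4.09% of all tested genes that were DE genes higher in Fb-Epn. The median log2 fold change was 2.00, a 3.99-fold difference, and single genes ranged from 0.28 (*Lyn*) to 6.75 (*Cd163*). *Lyn*, *Plek*, *Coro1a*, *Alox5ap* and *C1qc* were not called.

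Between Fb-Par and Fb-Skn, 28 of the 34 genes were called higher in Fb-Par and 0 were called lower. The background was 45.6% of all tested genes called, with 23.2% higher in Fb-Par. DE genes were 14 of the 34, all higher in Fb-Par, against 5.86% of all tested genes that were DE genes higher in Fb-Par. The median log2 fold change was 1.85, or 3.60-fold, with a range from -1.94 (*Cd163*) to 4.04 (*Adgre1*). The genes not called were *Lyn*, *Plek*, *Fgr*, *Cd37*, *Cd163* and *Ccr1*. These comparisons share libraries and are not independent of each other. Altogether 25 genes were called in all 3 comparisons, and *Lyn* and *Plek* in none. Under a filter of 10 or more counts in every library, only 16 of the genes could be tested. Of these, 15, 14 and 14 were called in the order of the comparisons above, again all higher in the first-named type. Of all 11313 genes tested under this filter, 4897, 4433 and 5105 were called, with 2516, 2254 and 2582 higher in that type.

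**Figure D2:**
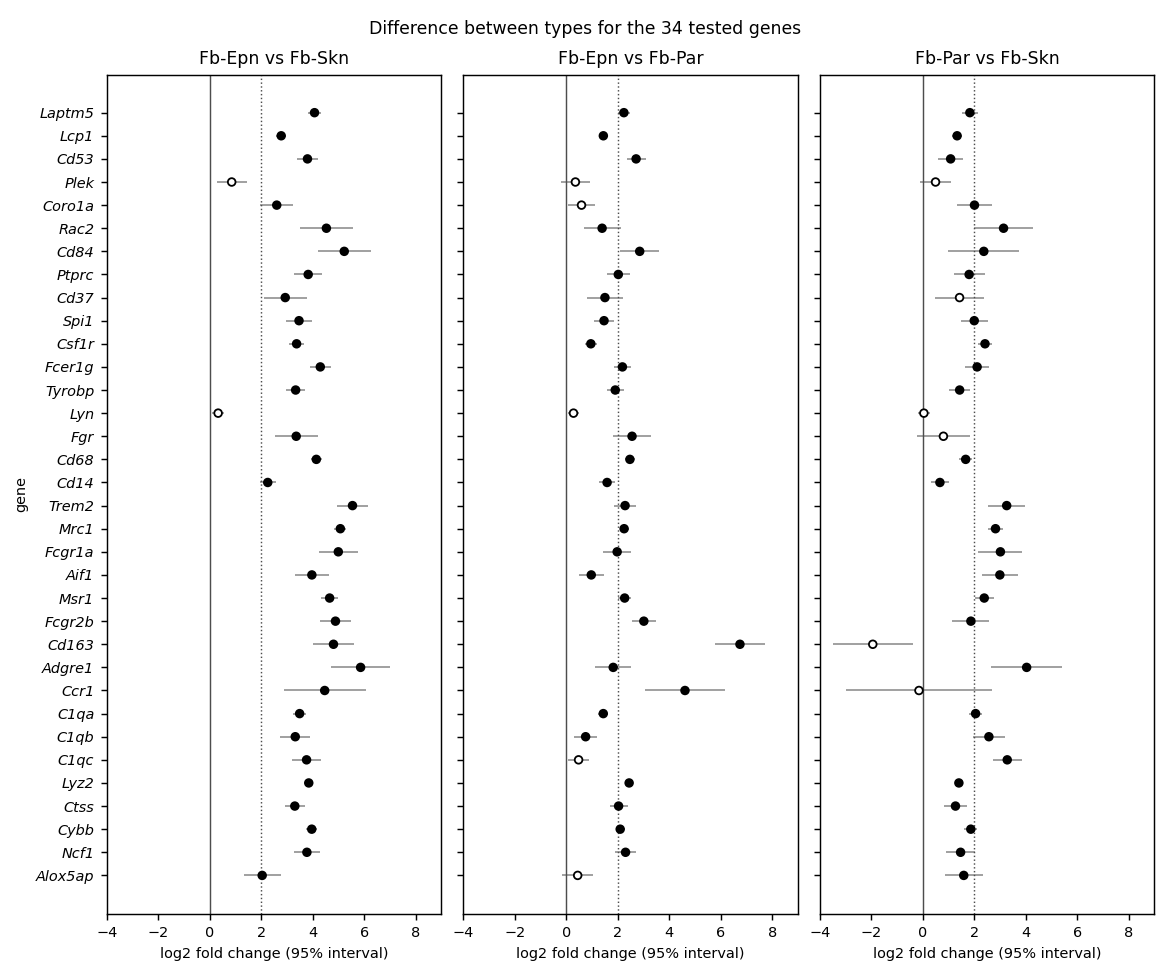
Log2 fold change of the 34 tested genes with its 95% interval, in 1 panel per comparison, with filled points for genes at an adjusted p under 0.01, open points for the others, a solid line at 0 and a dotted line at 2. Of the points for Fb-Epn vs Fb-Skn, 32 are filled and lie above 2, while *Cd163* stands out at 6.75 against Fb-Par and at -1.94 in Fb-Par vs Fb-Skn.

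Among the markers carried by leukocytes in general, 8 of 9 were called higher in Fb-Epn than Fb-Skn, 7 of 9 higher in Fb-Epn than Fb-Par, and 7 of 9 higher in Fb-Par than Fb-Skn. The shares over all tested genes were 23.0%, 20.2% and 23.2%. *Ptprc* (ENSRNOG00000000655, rn6 chromosome 13, 55061562 to 55173692) encodes CD45, the tyrosine phosphatase that defines leukocytes. Its TPM was 5.83, 5.44 and 6.12 in Fb-Epn, 1.23, 1.54 and 1.55 in Fb-Par and 0.545, 0.333 and 0.206 in Fb-Skn. The 3 types did not overlap, and the level in Fb-Epn was higher than in Fb-Skn by 14.1-fold (log2 fold change 3.82 ± 0.25, SE, adjusted p = 9.1e-09) and than in Fb-Par by 4.05-fold (log2 fold change 2.02 ± 0.21, SE, adjusted p = 1.3e-06). Fb-Par in turn was above Fb-Skn by 3.48-fold (log2 fold change 1.80 ± 0.28, SE, adjusted p = 7.4e-05), where CD45 rested on 5 to 15 counts per library.

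*Laptm5*, a lysosomal membrane protein of blood cells, had a TPM of 34.8, 35.8 and 35.4 in Fb-Epn, 7.31, 8.27 and 7.09 in Fb-Par and 1.72, 2.24 and 1.78 in Fb-Skn. *Lcp1*, the leukocyte actin-bundling protein L-plastin, had a TPM of 28.0, 26.9 and 26.3 in Fb-Epn, 9.98, 10.4 and 9.75 in Fb-Par and 3.78, 3.47 and 3.50 in Fb-Skn. Both were separated between the types, with folds of 16.7 and 6.83 for Fb-Epn over Fb-Skn and of 4.71 and 2.71 for Fb-Epn over Fb-Par. For the tetraspanins of the leukocyte surface, TPM of *Cd53* was 28.8, 32.8 and 33.9 in Fb-Epn, 5.90, 3.85 and 4.83 in Fb-Par and 2.70, 1.73 and 1.72 in Fb-Skn. *Cd37* was lower throughout, at 4.10, 4.17 and 4.96 in Fb-Epn, 1.39, 1.61 and 1.68 in Fb-Par and 0.280, 0.481 and 0.796 in Fb-Skn. *Cd53* was 6.55-fold and *Cd37* 2.83-fold higher in Fb-Epn than Fb-Par, and only *Cd53* was called between Fb-Par and Fb-Skn (log2 fold change 1.08 ± 0.23, SE, adjusted p = 0.0010), since *Cd37* did not pass there (log2 fold change 1.43 ± 0.44, SE, adjusted p = 0.013). *Cd37* did pass without Fb-Skn library 3 (log2 fold change 1.85, adjusted p = 0.0086), with library size alone as the scaling (adjusted p = 0.0092) and with limma on log2 TPM (adjusted p = 0.0012 and 0.0017 with pseudocounts of 1 and 0.1).

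*Rac2* encodes the Rac GTPase of blood cells, and its TPM was 8.48, 6.60 and 8.67 in Fb-Epn, 3.75, 2.94 and 2.35 in Fb-Par and 0, 0.309 and 0.612 in Fb-Skn. It was 23.1-fold higher in Fb-Epn than Fb-Skn, from 0 to 4 counts per Fb-Skn library, and 2.62-fold higher than in Fb-Par (log2 fold change 1.39 ± 0.33, SE, adjusted p = 0.0030). The latter call was lost when Fb-Epn library 1 (adjusted p = 0.015), Fb-Epn library 3 (0.016), Fb-Par library 2 (0.012) or Fb-Par library 3 (0.019) was left out. Against Fb-Skn, the log2 fold change of Fb-Epn was 3.93 and that of Fb-Par was 2.54 without Fb-Skn library 1, and 5.48 and 4.09 without Fb-Skn library 3.
*Cd84*, a SLAM family receptor, had a TPM of 6.73, 7.01 and 6.80 in Fb-Epn, 0.685, 0.950 and 1.20 in Fb-Par and 0.276, 0 and 0.156 in Fb-Skn. Its 144 counts in Fb-Epn and 19 in Fb-Par stood against 3 in Fb-Skn, giving ratios of 41.4 (95% counting interval 13.9 to 203.1) and 5.62 (1.65 to 29.7) per library size. The call between Fb-Par and Fb-Skn (log2 fold change 2.37 ± 0.64, SE, adjusted p = 0.0059) was lost without Fb-Epn library 2, either of Fb-Par libraries 2 and 3, or either of Fb-Skn libraries 2 and 3 (adjusted p = 0.0102, 0.013, 0.023, 0.026 and 0.017), and without Fb-Skn library 1 its log2 fold changes against Fb-Skn were 6.04 in Fb-Epn and 3.19 in Fb-Par.

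*Coro1a*, coronin of the leukocyte cortex, had a TPM of 5.60, 6.39 and 6.65 in Fb-Epn, 3.88, 4.09 and 4.51 in Fb-Par and 0.689, 1.45 and 0.652 in Fb-Skn. The Fb-Epn libraries lay above those of Fb-Par but the difference was not called (log2 fold change 0.59 ± 0.24, SE, adjusted p = 0.059), whereas both nerve-derived types were higher than Fb-Skn, by 6.05-fold and 4.02-fold. *Plek*, the protein kinase C substrate pleckstrin, had a TPM of 5.27, 6.70 and 4.02 in Fb-Epn, 4.23, 4.89 and 3.53 in Fb-Par and 2.64, 1.85 and 3.58 in Fb-Skn. Its types overlapped and no comparison was called, the largest difference being that of Fb-Epn against Fb-Skn (log2 fold change 0.85 ± 0.27, SE, adjusted p = 0.015). It was called without Fb-Epn library 3 (adjusted p = 0.0082) or without Fb-Skn library 3 (adjusted p = 0.0078). *Plek* also passed when every gene with at least 1 count was tested (adjusted p = 0.0073) and with at least 10 counts in every library (adjusted p = 0.0092). With limma on log2(TPM + 1) it passed as well (adjusted p = 0.0096). *Plek* overlaps *Cnrip1* on the opposite strand over 625 bases, and *Cnrip1* had up to 225 counts in a library. The use of strand in counting is not stated, so reads of the pair may have been shared.

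The regulator and the growth factor receptor of the lineage followed the same order. *Spi1* (ENSRNOG00000012172, rn6 chromosome 3, 79918969 to 79938301), which encodes PU.1, had a TPM of 15.4, 13.6 and 18.1 in Fb-Epn, 6.18, 4.16 and 6.79 in Fb-Par and 1.30, 1.38 and 1.16 in Fb-Skn. Types did not overlap, and *Spi1* was higher in Fb-Epn than Fb-Skn by 11.0-fold (log2 fold change 3.46 ± 0.23, SE, adjusted p = 8.0e-09), higher in Fb-Epn than Fb-Par by 2.76-fold (log2 fold change 1.46 ± 0.19, SE, adjusted p = 1.1e-05) and higher in Fb-Par than Fb-Skn by 4.00-fold (log2 fold change 2.00 ± 0.24, SE, adjusted p = 6.1e-06). *Csf1r* (ENSRNOG00000018414, rn6 chromosome 18, 56414488 to 56458300) encodes the receptor for CSF1 and IL-34, on which macrophage survival depends. *Csf1r* had a TPM of 14.0, 14.6 and 12.8 in Fb-Epn, 7.56, 7.04 and 6.94 in Fb-Par and 1.06, 1.32 and 1.26 in Fb-Skn. The types did not overlap. Fb-Epn exceeded Fb-Par by 1.93-fold (log2 fold change 0.95 ± 0.10, SE, adjusted p = 2.3e-06), under the median fold of the members, and Fb-Par exceeded Fb-Skn by 5.34-fold (log2 fold change 2.42 ± 0.14, SE, adjusted p = 1.2e-09).

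Of the signalling adaptors and kinases, the adaptors with an immunoreceptor activation motif were the most abundant. *Fcer1g*, the common gamma chain of Fc receptors, had a TPM of 126, 129 and 131 in Fb-Epn, 37.3, 23.4 and 24.4 in Fb-Par and 5.53, 7.66 and 4.62 in Fb-Skn. *Tyrobp*, the adaptor DAP12 that pairs with TREM2, had a TPM of 56.8, 56.7 and 67.9 in Fb-Epn, 15.1, 17.5 and 16.3 in Fb-Par and 6.09, 5.23 and 4.84 in Fb-Skn. Both were separated between the types, with *Fcer1g* 19.6-fold and *Tyrobp* 10.1-fold higher in Fb-Epn than Fb-Skn, and 4.53-fold and 3.73-fold higher than in Fb-Par. *Fgr*, a Src family kinase of myeloid cells, had a TPM of 3.18, 3.35 and 2.32 in Fb-Epn, 0.555, 0.481 and 0.457 in Fb-Par and 0.140, 0.400 and 0.238 in Fb-Skn. *Fgr* was higher in Fb-Epn than Fb-Par by 5.87-fold (log2 fold change 2.55 ± 0.34, SE, adjusted p = 2.0e-05), and its difference between Fb-Par and Fb-Skn was not called (log2 fold change 0.80 ± 0.49, SE, adjusted p = 0.18).
The Src family kinase *Lyn* is also made outside the myeloid lineage. Its TPM was 9.69, 8.63 and 9.70 in Fb-Epn, 8.03, 7.44 and 7.77 in Fb-Par and 6.90, 7.11 and 6.32 in Fb-Skn. The types did not overlap, but the differences were small and none was called, with a log2 fold change of 0.32 (adjusted p = 0.022) for Fb-Epn vs Fb-Skn, 0.28 (adjusted p = 0.045) for Fb-Epn vs Fb-Par and 0.04 (adjusted p = 0.77) for Fb-Par vs Fb-Skn. In Fb-Skn *Lyn* exceeded the leukocyte phosphatase *Ptprc*, at 6.78 ± 0.409 against 0.361 ± 0.171 TPM (mean ± SD, n = 3).

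All 10 macrophage surface receptors and markers were called higher in Fb-Epn than in either other type, and 9 of them were called higher in Fb-Par than Fb-Skn. The shares of all tested genes called so were 23.0% (Fb-Epn over Fb-Skn), 20.2% (Fb-Epn over Fb-Par) and 23.2% (Fb-Par over Fb-Skn). *Cd68* (ENSRNOG00000037563, rn6 chromosome 10, 56268720 to 56270640) encodes the lysosome-associated glycoprotein used to stain macrophages. TPM of *Cd68* was 147, 151 and 161 in Fb-Epn, 29.1, 24.8 and 29.5 in Fb-Par and 8.58, 8.47 and 6.55 in Fb-Skn. Types were far apart, with Fb-Epn above Fb-Skn by 17.6-fold (log2 fold change 4.14 ± 0.10, SE, adjusted p = 1.3e-13) and above Fb-Par by 5.54-fold (log2 fold change 2.47 ± 0.09, SE, adjusted p = 5.7e-12). *Cd14*, the co-receptor for lipopolysaccharide, had a TPM of 43.3, 45.1 and 55.3 in Fb-Epn, 18.3, 15.0 and 14.9 in Fb-Par and 7.57, 8.42 and 11.5 in Fb-Skn. It was 3.00-fold higher in Fb-Epn than Fb-Par, and the narrow difference between Fb-Par and Fb-Skn (log2 fold change 0.67 ± 0.16, SE, adjusted p = 0.0025) was no longer called without Fb-Par library 1 (0.015), Fb-Skn library 1 (0.015) or Fb-Skn library 2 (0.013, adjusted p).

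*Mrc1* (ENSRNOG00000018251, rn6 chromosome 17, 81352700 to 81433743) encodes the mannose receptor CD206 of tissue-resident macrophages. TPM of *Mrc1* was 34.4, 32.2 and 34.4 in Fb-Epn, 7.39, 6.73 and 7.31 in Fb-Par and 0.807, 1.16 and 0.757 in Fb-Skn. No library overlapped between types, and *Mrc1* was higher in Fb-Epn than Fb-Skn by 33.6-fold (log2 fold change 5.07 ± 0.11, SE, adjusted p = 3.1e-14), in Fb-Epn than Fb-Par by 4.74-fold (log2 fold change 2.24 ± 0.08, SE, adjusted p = 8.9e-12) and in Fb-Par than Fb-Skn by 7.09-fold (log2 fold change 2.82 ± 0.13, SE, adjusted p = 9.8e-11). *Trem2*, a lipid-sensing receptor of macrophages and microglia, had a TPM of 47.8, 44.8 and 43.4 in Fb-Epn, 8.20, 12.9 and 7.10 in Fb-Par and 1.11, 0.363 and 1.08 in Fb-Skn. Fb-Par library 2 was the highest of its type, and *Trem2* was still higher in Fb-Epn than Fb-Par by 4.86-fold (log2 fold change 2.28 ± 0.20, SE, adjusted p = 2.0e-07). Against Fb-Skn it was 46.6-fold higher in Fb-Epn and 9.58-fold higher in Fb-Par.

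*Msr1*, the scavenger receptor class A, had a TPM of 12.3, 12.6 and 13.2 in Fb-Epn, 2.61, 2.83 and 2.52 in Fb-Par and 0.500, 0.322 and 0.532 in Fb-Skn. *Aif1*, the calcium-binding protein IBA1 of macrophages, had a TPM of 9.52, 9.99 and 11.7 in Fb-Epn, 3.75, 6.80 and 5.57 in Fb-Par and 0.510, 0.467 and 0.811 in Fb-Skn. *Msr1* was 4.81-fold and *Aif1* 1.96-fold higher in Fb-Epn than Fb-Par, and the *Aif1* call (log2 fold change 0.97 ± 0.22, SE, adjusted p = 0.0024) was lost without Fb-Epn library 3 (adjusted p = 0.015) or Fb-Par library 1 (adjusted p = 0.013). *Adgre1*, the F4/80 antigen, was low, with a TPM of 3.35, 2.91 and 2.89 in Fb-Epn, 0.893, 0.774 and 0.920 in Fb-Par and 0, 0.129 and 0 in Fb-Skn. Fb-Skn held 2 counts of it in all, both in library 2, against 157 in Fb-Epn and 43 in Fb-Par, which gives ratios of 67.7 (95% counting interval 18.4 to 563.9) and 19.1 (4.97 to 162.6). Without Fb-Skn library 2 the fitted log2 fold changes of *Adgre1* against Fb-Skn, then at 0 counts, were 8.66 in Fb-Epn and 6.83 in Fb-Par.

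Receptors for IgG were likewise graded. *Fcgr1a*, the high-affinity receptor CD64, had a TPM of 15.7, 15.3 and 12.4 in Fb-Epn, 3.99, 3.63 and 3.45 in Fb-Par and 0.243, 0.139 and 0.828 in Fb-Skn. *Fcgr2b*, the inhibitory receptor, had a TPM of 10.4, 10.8 and 9.26 in Fb-Epn, 1.18, 1.37 and 1.25 in Fb-Par and 0.198, 0.568 and 0.169 in Fb-Skn. Both were higher in Fb-Epn than Fb-Par, *Fcgr1a* by 3.93-fold and *Fcgr2b* by 8.06-fold, and their log2 fold changes against Fb-Skn moved when 1 Fb-Skn library was left out. Without Fb-Skn library 3 *Fcgr1a* had 5.97 in place of 4.99 for Fb-Epn and 3.99 in place of 3.02 for Fb-Par. *Fcgr2b* had 5.59 in place of 4.88 and 2.58 in place of 1.87 without Fb-Skn library 2. The *Fcgr2b* gene model spans *Fcgr3a* on the opposite strand over 10193 bases, with up to 59 *Fcgr3a* counts in a library, and the receptors of this family are close copies, so its value is uncertain.

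*Cd163* departed from the gradient. The gene (ENSRNOG00000010253, rn6 chromosome 4, 156752082 to 156785467) encodes the scavenger receptor for hemoglobin and haptoglobin on tissue-resident macrophages. Its counts were 182, 217 and 194 in Fb-Epn, 5, 0 and 0 in Fb-Par and 8, 7 and 3 in Fb-Skn. In TPM these were 8.50, 8.97 and 8.96 in Fb-Epn, 0.214, 0 and 0 in Fb-Par and 0.345, 0.345 and 0.147 in Fb-Skn. Fb-Epn stood alone, and of the Fb-Par libraries only the first held any count. *Cd163* was higher in Fb-Epn than Fb-Skn by 27.9-fold (log2 fold change 4.80 ± 0.37, SE, adjusted p = 4.4e-08) and than in Fb-Par by 107-fold (log2 fold change 6.75 ± 0.44, SE, adjusted p = 9.5e-09), and this largest fold of all tested members rests on 5 counts in Fb-Par. Without Fb-Par library 1 the log2 fold change to Fb-Par was 10.52, fitted against 0 counts. Fb-Par vs Fb-Skn was not called (log2 fold change -1.94 ± 0.73, SE, adjusted p = 0.034), but it was called lower in Fb-Par without Fb-Par library 1 (log2 fold change -5.72, adjusted p = 0.00040) and when every gene with at least 1 count was tested (-1.95, adjusted p = 0.0066).

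The chemokine receptors were among the lowest members, and each was found mainly in a different nerve-derived type. *Ccr1*, a receptor for CCL3 and CCL5, had 23, 15 and 21 counts in Fb-Epn, 2, 0 and 0 in Fb-Par and 1, 0 and 1 in Fb-Skn, equal to a TPM of 2.48, 1.43 and 2.24 in Fb-Epn, 0.198, 0 and 0 in Fb-Par and 0.0994, 0 and 0.113 in Fb-Skn. It was called higher in Fb-Epn than Fb-Par (adjusted p = 9.8e-05, edgeR) and than in Fb-Skn (adjusted p = 1.3e-04, edgeR), with count ratios of 28.7 (95% counting interval 7.59 to 242.2) and 25.4 (6.74 to 214.95), and without Fb-Par library 1 the fitted log2 fold change to Fb-Par went from 4.61 to 7.22. Fb-Par and Fb-Skn each held 2 counts, under the floor of 3 counts over the group, and no fold is given.
*Cx3cr1* (ENSRNOG00000018509, rn6 chromosome 8, 128740756 to 128754514) encodes the fractalkine receptor of monocytes, microglia and some resident macrophages. Its counts were 0, 1 and 0 in Fb-Epn, 14, 8 and 18 in Fb-Par and 0, 0 and 0 in Fb-Skn, or 0, 0.133 and 0 in Fb-Epn, 1.93, 1.27 and 2.72 in Fb-Par and 0, 0 and 0 in Fb-Skn in TPM. Every Fb-Par library lay above every library of the other types. The ratio of Fb-Par to Fb-Epn was 41.2 (95% counting interval 6.98 to 1667), and Fb-Par was at least 11.8-fold above a floor of 3 counts over the Fb-Skn libraries. *Cx3cr1* did not pass the expression filter. When every gene with at least 1 count was tested, it was called for Fb-Par against Fb-Epn (adjusted p = 3.5e-05, edgeR) and against Fb-Skn (adjusted p = 1.0e-05, edgeR), and not for Fb-Epn against Fb-Skn (adjusted p = 0.46, edgeR). These intervals and floors cover counting error only.

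The chains of complement C1q, which assemble into the recognition molecule of the classical pathway and are made largely by macrophages, differed less between both nerve-derived types than the median member. Their genes lie in a cluster on rn6 chromosome 5, from 155246447 (*C1qb*) to 155264143 (*C1qa*). *C1qa* had a TPM of 82.8, 80.0 and 85.6 in Fb-Epn, 29.9, 32.4 and 30.2 in Fb-Par and 6.65, 7.62 and 5.77 in Fb-Skn. *C1qb* had a TPM of 21.9, 18.1 and 15.6 in Fb-Epn, 10.3, 13.2 and 9.80 in Fb-Par and 1.19, 1.36 and 2.50 in Fb-Skn. *C1qc* had a TPM of 17.9, 15.4 and 16.8 in Fb-Epn, 11.9, 12.6 and 11.8 in Fb-Par and 1.35, 1.35 and 0.574 in Fb-Skn. In each chain all Fb-Epn libraries were above all Fb-Par libraries, by a smaller fold than that from Fb-Par to Fb-Skn. Fb-Epn exceeded Fb-Par by 2.70-fold (log2 fold change 1.44 ± 0.09, SE, adjusted p = 6.3e-09) for *C1qa* and by 1.68-fold (log2 fold change 0.75 ± 0.21, SE, adjusted p = 0.0090) for *C1qb*, and *C1qc* was not called (log2 fold change 0.48 ± 0.19, SE, adjusted p = 0.047). The *C1qb* call was lost without any one of Fb-Epn libraries 1 and 2, Fb-Par libraries 1 and 3 and Fb-Skn library 2, with adjusted p = 0.056, 0.026, 0.039, 0.044 and 0.011. All 3 chains were DE genes in Fb-Par vs Fb-Skn, with 4.15-fold, 5.93-fold and 9.72-fold differences for *C1qa*, *C1qb* and *C1qc*. For Fb-Epn over Fb-Skn the folds were 11.2, 9.97 and 13.5.

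Genes of the lysosome, the phagocyte oxidase and lipid mediators included the most abundant member. *Lyz2* (ENSRNOG00000005825, rn6 chromosome 7, 60335969 to 60341264) encodes lysozyme, the secreted enzyme that cleaves bacterial cell walls and is a hallmark of macrophages and granulocytes. TPM of *Lyz2* was 962, 930.4 and 979 in Fb-Epn, 183, 171 and 179 in Fb-Par and 58.0, 61.8 and 62.0 in Fb-Skn, from 5753 to 6285 counts per Fb-Epn library and 350 to 376 per Fb-Skn library. The types were widely apart with little spread within each. *Lyz2* was higher in Fb-Epn than Fb-Skn by 14.3-fold (log2 fold change 3.84 ± 0.04, SE, adjusted p = 2.9e-17), in Fb-Epn than Fb-Par by 5.43-fold (log2 fold change 2.44 ± 0.04, SE, adjusted p = 8.6e-16), and in Fb-Par than Fb-Skn by 2.64-fold (log2 fold change 1.40 ± 0.04, SE, adjusted p = 1.7e-12). Whether reads of the related lysozyme gene *Lyc2* were counted for *Lyz2* was not tested.

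*Ctss*, the lysosomal protease cathepsin S of antigen-presenting cells, had a TPM of 49.9, 43.8 and 49.5 in Fb-Epn, 14.9, 10.4 and 9.71 in Fb-Par and 4.63, 3.61 and 4.84 in Fb-Skn. *Cybb*, the catalytic subunit NOX2 of the phagocyte oxidase, had a TPM of 32.7, 33.2 and 32.0 in Fb-Epn, 7.93, 7.34 and 7.82 in Fb-Par and 2.02, 1.52 and 2.14 in Fb-Skn. *Ncf1*, the cytosolic oxidase subunit p47-phox, had a TPM of 10.2, 8.44 and 7.79 in Fb-Epn, 2.09, 1.54 and 1.74 in Fb-Par and 0.510, 0.584 and 0.651 in Fb-Skn. These 3 genes were graded alike, with folds for Fb-Epn over Fb-Par of 4.08, 4.26 and 4.93, and for Fb-Par over Fb-Skn of 2.41, 3.64 and 2.77. *Alox5ap*, the 5-lipoxygenase activating protein of leukotriene synthesis, had a TPM of 5.84, 4.81 and 4.18 in Fb-Epn, 3.50, 3.84 and 3.65 in Fb-Par and 1.11, 1.06 and 1.05 in Fb-Skn. It was 4.09-fold higher in Fb-Epn and 3.01-fold higher in Fb-Par than Fb-Skn, and the difference between both nerve-derived types was not called (log2 fold change 0.44 ± 0.28, SE, adjusted p = 0.21).

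**Figure D3:**
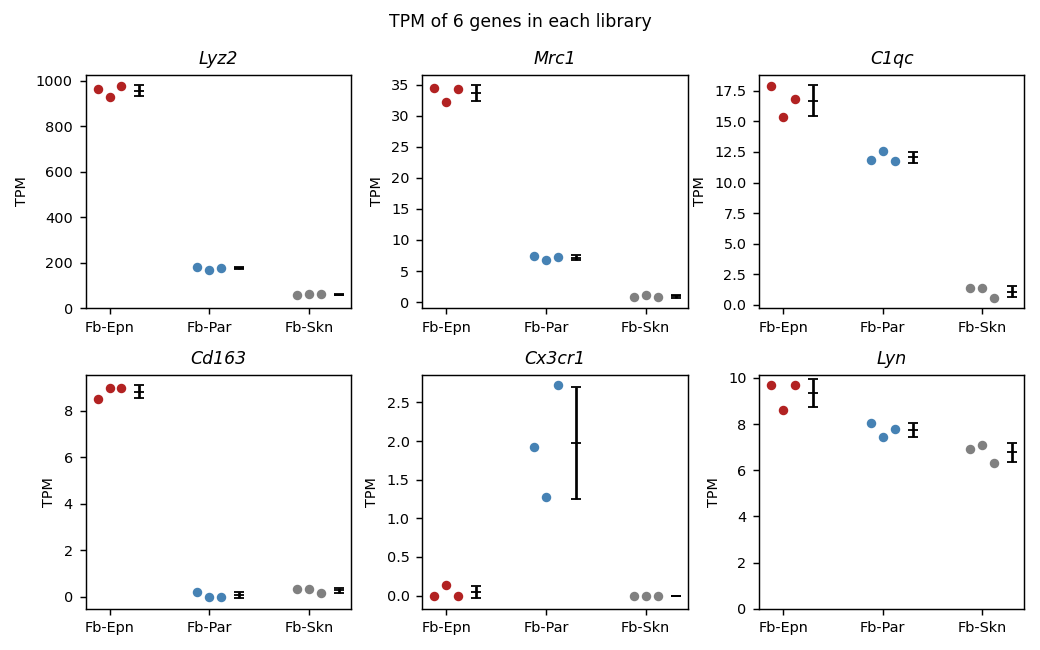
TPM of *Lyz2*, *Mrc1*, *C1qc*, *Cd163*, *Cx3cr1* and *Lyn* in each library, with 3 points per type and a black mark with bars for the mean ± SD, each panel on its own linear axis. *Lyz2* and *Mrc1* step down from Fb-Epn to Fb-Par to Fb-Skn, *C1qc* has close levels in Fb-Epn and Fb-Par, *Cd163* is high in Fb-Epn alone, *Cx3cr1* is high in Fb-Par alone, and *Lyn* lies between 6.32 and 9.70 TPM in all 9 libraries.

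The members were not in the same proportion to each other in the 3 types. Levels were set against *Lyz2* as TPM per 100 TPM of *Lyz2*, with no test. *Cd68* kept a like proportion, with means of 16.0 for Fb-Epn, 15.6 for Fb-Par and 13.0 for Fb-Skn. *C1qc* had 1.74 for Fb-Epn, 6.81 for Fb-Par and 1.81 for Fb-Skn, and *C1qa* had 8.65, 17.4 and 11.0. *Csf1r* likewise had its largest proportion in Fb-Par, at 4.04 against 1.44 in Fb-Epn and 2.00 in Fb-Skn. The same held for other members, such as *Spi1* (1.64, 3.20 and 2.11) and *Aif1* (1.09, 3.05 and 0.981). *Lyz2* itself had a larger fold than the median member for Fb-Epn over Fb-Par and a smaller one for Fb-Par over Fb-Skn. Dividing by it therefore raises the proportion of a typical member in Fb-Par. *Mrc1* had 3.52, 4.02 and 1.50, so that Fb-Skn was the lowest. *Cd163* had 0.921 for Fb-Epn, 0.0391 for Fb-Par and 0.463 for Fb-Skn. *Lyn* ran the other way, at 0.975, 4.36 and 11.2.

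Further genes of myeloid cells, 47 by a hand-written list of which 41 were found and 36 tested, leaned in the same direction. In Fb-Epn vs Fb-Skn 30 were called higher and 4 lower, with a median log2 fold change of 3.02. In Fb-Epn vs Fb-Par 25 were called higher and 5 lower (median 1.51), and in Fb-Par vs Fb-Skn 19 higher and 2 lower (median 1.28). Over all tested genes 43.9%, 38.8% and 45.6% were called in these comparisons, with 23.0%, 20.2% and 23.2% higher in the first-named type. Of their 5 most abundant genes only *Gpnmb* had the order of the members. *Gpnmb*, a glycoprotein of phagocytes that other cells also make, was at 939.9 ± 10.0 for Fb-Epn, 392 ± 7.31 for Fb-Par and 169.5 ± 6.88 TPM for Fb-Skn (mean ± SD, n = 3 each). *Cyba*, the oxidase subunit p22-phox that is made in many cell types, was at 253 ± 5.84, 294 ± 18.3 and 266 ± 10.6 TPM (n = 3). *Cd48* was at 148 ± 4.32, 233 ± 13.5 and 156 ± 11.5 TPM (n = 3). The transcription factor *Runx1* was highest in Fb-Epn and lowest in Fb-Par, at 196 ± 3.56, 63.4 ± 6.15 and 94.7 ± 10.1 TPM (n = 3). *Maf* was at 57.1 ± 2.50, 50.9 ± 7.31 and 67.7 ± 3.79 TPM (n = 3), with its only called differences in the lower direction against Fb-Skn (log2 fold change -0.39 for Fb-Epn and -0.56 for Fb-Par).

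A pair of further genes of the list, chosen after their values were seen, were many times higher in Fb-Epn than in the other types. *Clec10a*, a macrophage lectin, had a TPM of 34.1, 32.5 and 31.5 in Fb-Epn, 1.17, 2.02 and 1.54 in Fb-Par and 1.41, 2.69 and 1.60 in Fb-Skn. *Folr2*, a folate receptor of resident macrophages, had a TPM of 92.6, 75.5 and 86.6 in Fb-Epn, 5.38, 14.0 and 7.17 in Fb-Par and 2.70, 3.32 and 3.07 in Fb-Skn. *Clec10a* was higher in Fb-Epn than Fb-Par by 20.9-fold (log2 fold change 4.39 ± 0.21, SE, adjusted p = 2.6e-10) and was not called between Fb-Par and Fb-Skn (log2 fold change -0.42 ± 0.29, SE, adjusted p = 0.26). *Folr2* was 9.77-fold higher in Fb-Epn than Fb-Par and 2.59-fold higher in Fb-Par than Fb-Skn.

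Markers of other leukocytes were near 0. Of 15 listed genes of T, B and natural killer cells, 11 were at 0 in all Fb-Epn libraries, 12 in Fb-Par and 10 in Fb-Skn, and their sum was 1.14 to 4.40 TPM per library. Only *Cd2* of this list passed the filter, with a TPM of 0, 0 and 0 in Fb-Epn, 0, 0 and 0 in Fb-Par and 2.27, 1.73 and 3.60 in Fb-Skn. This T cell gene had counts in Fb-Skn alone and was a DE gene, lower in Fb-Epn (adjusted p = 2.2e-04, edgeR) and in Fb-Par (adjusted p = 2.3e-04, edgeR). Of 9 genes of mast cells and neutrophils, 7, 5 and 6 were at 0 in the 3 types and the sum was 0 to 1.64 TPM. The sum of the 8 listed fibroblast markers, among them *Col1a1* and *Dcn*, was 39020 ± 109 TPM for Fb-Epn, 31852 ± 535 TPM for Fb-Par and 39800.1 ± 585 TPM for Fb-Skn, and thus far above the macrophage and leukocyte genes in every type. *Thy1* of this list was a DE gene, lower in Fb-Epn than Fb-Skn.

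Markers of 2 more cell types of nerve also moved between the types. For 6 listed Schwann cell genes the sum was 152 to 167 TPM in Fb-Epn, 190.4 to 199.7 TPM in Fb-Par and 9.76 to 12.5 TPM in Fb-Skn. *Sox10*, *Erbb3* and *Cdh19* were at 0 in every Fb-Skn library, and *S100b* was also a DE gene for both nerve-derived types over Fb-Skn. For 5 endothelial genes the sum was 10.95 to 11.2 TPM in Fb-Epn, 9.77 to 10.9 TPM in Fb-Par and 1.00 to 1.56 TPM in Fb-Skn, with *Cdh5* and *Emcn* at 0 in every Fb-Skn library. *Tek* alone made up most of this sum, with means of 8.37 TPM for Fb-Epn, 10.2 TPM for Fb-Par and 1.20 TPM for Fb-Skn. *Cdh5* had means of 1.78 TPM for Fb-Epn and 0.0968 TPM for Fb-Par. *Tek*, *Cdh5* and *Vwf* were DE genes for Fb-Epn over Fb-Skn, *Cdh5* for Fb-Epn over Fb-Par and *Tek* for Fb-Par over Fb-Skn. The Schwann cell sum was thus higher in Fb-Par than Fb-Epn, in the opposite order to the macrophage sum, and the part of these cells in the results was not tested. *S100b* made up most of the Schwann cell sum, with close means of 130 TPM for Fb-Epn and 119 TPM for Fb-Par. Of the 6 genes, 5 were called lower in Fb-Epn than Fb-Par and 0 higher (median log2 fold change -1.12), where 38.8% of all tested genes were called in either direction. The paper describes negligible antibody labelling of Schwann cell and endothelial proteins in its cultures, whereas the sums here are of RNA.

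**Figure D4:**
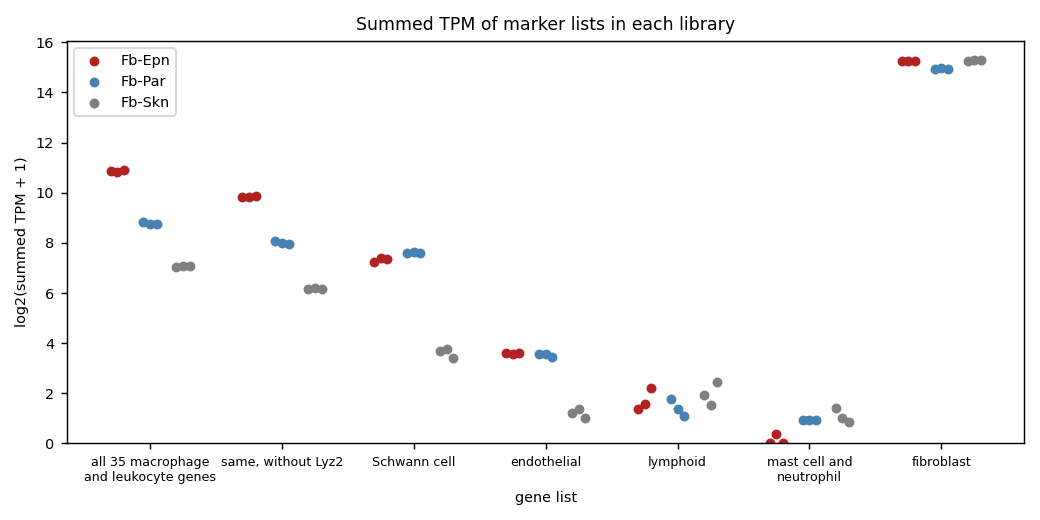
Summed TPM of marker lists in each library, on the scale log2(TPM + 1), with 3 points per type for each list. The macrophage and leukocyte genes fall from Fb-Epn to Fb-Par to Fb-Skn with and without *Lyz2*. The Schwann cell and endothelial sums are lowest in Fb-Skn, and the endothelial sum is mostly that of *Tek*. Lymphoid genes and genes of mast cells and neutrophils lie near 0, and fibroblast genes are high in all 9 libraries.

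Ligands for macrophage receptors were measured in the same libraries. *Csf1*, the main growth factor for CSF1R, was abundant in all types but highest in Fb-Skn, with a TPM of 158, 156 and 155 in Fb-Epn, 144, 147 and 142 in Fb-Par and 214, 221 and 215 in Fb-Skn. It was lower in Fb-Epn than Fb-Skn (log2 fold change -0.61 ± 0.03, SE, adjusted p = 3.4e-10) and lower in Fb-Par than Fb-Skn (log2 fold change -0.74 ± 0.03, SE, adjusted p = 3.5e-11), whereas *Csf1r* was lowest in Fb-Skn. Between both nerve-derived types *Csf1* was slightly higher in Fb-Epn (log2 fold change 0.13 ± 0.03, SE, adjusted p = 0.0032). *Il34*, the other ligand of this receptor, had a TPM of 4.66, 3.72 and 5.84 in Fb-Epn, 24.5, 23.2 and 22.8 in Fb-Par and 5.97, 5.88 and 5.12 in Fb-Skn. Fb-Par stood above both other types, with a log2 fold change of -2.30 for Fb-Epn vs Fb-Par (adjusted p = 1.6e-08) and of 1.90 for Fb-Par vs Fb-Skn (adjusted p = 9.8e-08).

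*Cx3cl1*, the fractalkine ligand of CX3CR1, had a TPM of 0.318, 0.0563 and 0.503 in Fb-Epn, 2.27, 2.16 and 1.47 in Fb-Par and 0.763, 0.605 and 0.867 in Fb-Skn. Its Fb-Par libraries were the 3 highest, as for *Cx3cr1*, and it was called lower in Fb-Epn than Fb-Par (log2 fold change -2.74 ± 0.46, SE, adjusted p = 1.8e-04) but not between Fb-Par and Fb-Skn (log2 fold change 1.24 ± 0.40, SE, adjusted p = 0.017). *Cd200*, which restrains macrophages through its receptor, was higher in Fb-Epn than Fb-Par (log2 fold change 0.90 ± 0.12, SE, adjusted p = 1.6e-05) and in Fb-Par than Fb-Skn (log2 fold change 0.74 ± 0.13, SE, adjusted p = 2.4e-04). *Cd47*, the signal against phagocytosis, was lowest in Fb-Par, at 115 ± 1.66, 86.8 ± 2.94 and 118 ± 7.74 TPM (n = 3) in the order used above. *Gas6* and *Pros1*, bridging ligands of TAM receptors in the uptake of dead cells, were both higher in Fb-Par than Fb-Epn, with log2 fold changes of -0.42 and -1.16 for Fb-Epn vs Fb-Par. Of the 7 ligands tested, 2 were called higher and 3 lower in Fb-Epn vs Fb-Skn, 3 higher and 4 lower in Fb-Epn vs Fb-Par, and 4 higher and 2 lower in Fb-Par vs Fb-Skn. Over all tested genes 43.9%, 38.8% and 45.6% were called in these comparisons, in either direction.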

How the data were processed

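The data are 9 RNA sequencing libraries from rat fibroblast cultures, 3 per type. The authors made directional poly(A) libraries, sequenced paired ends and aligned the reads to rn6. The submitters' processing notes name FastQC 0.11.7, Trimmomatic 0.38, HISAT2 2.1.0 and featureCounts 1.6.3. Which annotation release was used, and whether strand was used in counting, is not given in the sources used here. The authors deposited raw counts per gene, which were used for every test, and a table of TPM, which was used for levels. A deposited table of FPKM was not used.

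Groups came from the sample labels. Tests on counts used edgeR 4.0.16 under R 4.3.3, with TMM normalization, the default expression filter and the quasi-likelihood F test. A single model held all 9 libraries, and p-values were adjusted by Benjamini-Hochberg within each of 3 comparisons. Libraries of a type varied with a common coefficient of variation of 8.25%. Libraries of a type differed beyond sampling noise (chi-square per degree of freedom 3.18 to 5.45), so none was a repeat deposit. On simulated counts for Fb-Epn vs Fb-Skn, 200 of 200 changed genes among 13065 were recovered as DE genes with 0 false calls. The planted changes all exceeded the DE threshold, were placed only in genes above a minimum count, and used the common variation for every gene. The simulation therefore checks the running of the test and says nothing about smaller folds or genes with few counts. Where a type held 3 counts or fewer, the ratio of counts per library size is given with an exact 95% interval, or against a floor of 3 counts where it held 0.

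All members are named, with the 5 most abundant genes of a further myeloid list, the tested ligands and the DE genes of the other lists. A marker counted in the list totals is not reported here by itself. The members and lists were chosen with earlier results of these data known. Alternatives were RLE and upper-quartile factors, library size only, other filters, each comparison fitted alone, a replicate block, leaving out each library, DESeq2 1.42.0, and limma 3.58.1 on log2(TPM + 1) and log2(TPM + 0.1). Promoters came from RefSeq on GRCr8 and gene positions from the deposited tables on rn6. Python 3.11.15 with pandas 2.3.3 served for tables, scipy 1.17.1 for exact intervals and matplotlib 3.10.9 for plots.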

Additional observations from a re-analysis of the deposited data

How the results depend on the processing

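A filter of 10 or more counts in every library, which removes genes near 0 in any type, left 16 of the members to test. Of these 16, 15 were called for Fb-Epn vs Fb-Skn, 14 for Fb-Epn vs Fb-Par and 14 for Fb-Par vs Fb-Skn. DE genes among them were 14, 8 and 5. Over all 11313 genes tested under this filter, 220, 220 and 238 were DE genes higher in the first-named type. With limma on log2(TPM + 1), which shrinks folds of low genes, DE genes fell to 10 for Fb-Epn vs Fb-Par and 6 for Fb-Par vs Fb-Skn. Limma on TPM also shifted the median of all genes against Fb-Skn by 0.12 to 0.14 on the log2 scale. Without *Lyz2* the summed TPM was 915 for Fb-Epn, 259 for Fb-Par and 71.7 for Fb-Skn. Leaving out 1 library at a time, 32 to 33, 27 to 30 and 27 to 29 genes were called in Fb-Epn vs Fb-Skn, Fb-Epn vs Fb-Par and Fb-Par vs Fb-Skn, and 31 to 32, 16 to 18 and 11 to 16 were DE genes. The summed TPM then ranged from 1849 to 1895 for Fb-Epn, 427.6 to 441 for Fb-Par and 131 to 134 for Fb-Skn. Of the single-gene values under the alternatives, 1833 kept their direction and side of the threshold, 26 lost the call (*Aif1*, *C1qb* and *Rac2* in Fb-Epn vs Fb-Par, *Cd14* and *Cd84* in Fb-Par vs Fb-Skn), 15 gained it (*Lyn* and *Plek* in Fb-Epn vs Fb-Skn, *Cd163* and *Cd37* in Fb-Par vs Fb-Skn) and 5 turned direction without a call. The latter were *Ccr1* in Fb-Par vs Fb-Skn, with log2 fold changes of 0.32 and 0.35 without Fb-Par libraries 2 and 3 and of 0.16 and 0.22 without Fb-Skn libraries 1 and 3 (range -2.75 to 0.35 over the left-out libraries), and *Lyn* in the same comparison, with -0.0096 without Fb-Skn library 3 (range -0.0096 to 0.072). The cause was not tested. No shared effect of equal replicate numbers was seen, since deviations of same-numbered libraries correlated at r = -0.080 to 0.020. Only pairs of Fb-Epn and Fb-Par could share a rat, and theirs were -0.026, -0.012 and -0.080. These values cannot tell whether samples of the same number came from the same rat. With the replicate number as a block, 32, 28 and 27 genes were called and 32, 17 and 13 were DE genes, with the calls lost for *C1qb* in Fb-Epn vs Fb-Par (adjusted p = 0.017) and *Cd84* in Fb-Par vs Fb-Skn (adjusted p = 0.014).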
